A study of Mus musculus with 12 samples.

Results

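The report concerns the open chromatin around 10 mouse genes of epithelial adhesion and the simple-epithelium cytoskeleton: Cdh1, Epcam, Krt8, Krt18, Krt19, Krt7, Cldn4, Cldn6, Rab25 and Grhl2. A peak was counted for a gene when its midpoint lay nearest to that gene among all protein-coding genes and within 100 kb of it. This gave 251 of the 260693 peaks in 6 deposited peak lists. Overlapping peaks joined across the lists formed 79 open regions, of 87313 regions near any protein-coding gene.

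The cells came from mouse embryos at embryonic day 7.5 that were homozygous for a tagRFP fusion of FoxA2, a forkhead pioneer factor of endoderm, node and notochord. In dHx embryos an alpha helix of the fused FoxA2 was missing 10 residues, and in WT embryos it was otherwise intact, so both genotypes carried the tag on both alleles. Per the labels' protocols, the mice had a mixed C57Bl6/J x CD-1 background, about 10 unsexed embryos were pooled per sort, and extraembryonic tissue was dissected away. Cells were sorted by tagRFP into Negative, Middle (up to the brightest heterozygous cells) and High (brighter than those). The 6 groups, dHx and WT at each of 3 RFP levels, had 2 libraries of 2000 to 5000 cells each. ATAC-seq, in which a transposase cuts and tags open DNA, was read out as 1 list of peaks per group from its pooled libraries. No difference between lists therefore had replicates and no test between groups was made. In pooled cells, a region open in fewer cells and a region less open in each cell cannot be told apart.

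E-cadherin, EpCAM and the claudins join neighbouring epithelial cells at the lateral membrane, and the paired keratins 8 and 18, with 19 and 7 as further members of simple epithelia, form their intermediate filaments. Grainyhead-like 2 is a transcription factor that activates many of these genes, and Rab25 is a small GTPase of recycling vesicles in epithelial cells. At gastrulation the epiblast, the endoderm and the node are epithelial, whereas mesoderm leaves the primitive streak after losing E-cadherin. Zinc finger repressors of the Snail and Zeb families bind the E-box CACCTG in the promoters of epithelial genes.

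The promoters of 7 of the 10 genes were in the RefSeq promoter table (build GRCm38.p6, the assembly of mm10), as windows of 250 bases before to 50 after the annotated start. Cdh1, Krt19 and Grhl2 were not among them. The 250 upstream bases are given for 5 of the genes: the keratin pair Krt8 and Krt18, whose promoters differed in the lists that held them, Krt7, held by 1 list, Cldn6, held by all 6, and Rab25, the only window with a grainyhead match. Each reads 5′ to 3′ on the gene's strand, and capitals mark matches to the motifs listed after the sequences.
Krt8, chr15:102004343-102004592, minus strand: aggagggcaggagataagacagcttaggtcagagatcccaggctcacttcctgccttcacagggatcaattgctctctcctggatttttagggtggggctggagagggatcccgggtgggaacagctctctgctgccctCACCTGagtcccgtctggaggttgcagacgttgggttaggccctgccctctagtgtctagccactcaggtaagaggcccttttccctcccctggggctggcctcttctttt
Krt18, chr15:102027966-102028215, plus strand: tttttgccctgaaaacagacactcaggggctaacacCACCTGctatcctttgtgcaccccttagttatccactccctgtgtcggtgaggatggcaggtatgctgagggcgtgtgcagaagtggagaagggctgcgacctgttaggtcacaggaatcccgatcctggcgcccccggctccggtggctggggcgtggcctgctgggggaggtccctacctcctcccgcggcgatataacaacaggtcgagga
Krt7, chr15:101412153-101412402, plus strand: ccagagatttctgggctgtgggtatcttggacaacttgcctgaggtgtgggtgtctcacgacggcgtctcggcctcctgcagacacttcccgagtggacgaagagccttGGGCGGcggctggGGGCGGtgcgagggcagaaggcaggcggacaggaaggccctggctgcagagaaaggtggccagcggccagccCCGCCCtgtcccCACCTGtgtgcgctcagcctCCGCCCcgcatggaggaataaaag
Cldn6, chr17:23679115-23679364, plus strand: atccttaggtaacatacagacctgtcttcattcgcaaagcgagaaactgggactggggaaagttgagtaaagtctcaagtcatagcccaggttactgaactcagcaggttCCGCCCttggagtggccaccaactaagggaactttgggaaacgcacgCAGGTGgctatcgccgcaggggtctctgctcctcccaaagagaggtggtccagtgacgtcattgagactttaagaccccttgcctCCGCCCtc
Rab25, chr3:88548280-88548529, minus strand: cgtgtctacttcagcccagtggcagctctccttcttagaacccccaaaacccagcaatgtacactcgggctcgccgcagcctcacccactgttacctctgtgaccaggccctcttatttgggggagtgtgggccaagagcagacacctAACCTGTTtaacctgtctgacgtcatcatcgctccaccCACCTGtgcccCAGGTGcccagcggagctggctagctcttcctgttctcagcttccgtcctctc

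Motifs were searched on both strands of the whole 300-base windows. The E-box CACCTG was found in 7 of the 7 windows, against 20.2% of the 32851 windows in the table. Counted from the start, where -1 is the base just before it, the match began at -111 in Krt8, at -214 in Krt18, at -44 in Krt7 and at -93 in Cldn6, which had a further match downstream of the start. Rab25 had matches at -64 and -53, and a grainyhead motif AACNGGTT at -102, a motif held by 2.09% of all windows. The GC box GGGCGG was in 4 of the 7 windows (35.7% of all), with 4 matches in Krt7, and the AP-1 motif TGANTCA in Cldn4 alone (7.81% of all). Neither forkhead form, TGTTTAC (3.65% of all) or TATTTAC (3.04%), was found in the 7 windows. None of these motifs overlapped another in the 5 printed sequences. A match describes letters in the window and is no evidence of binding.

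Across the series the lists held 50424, 39121 and 37129 peaks in dHx Negative, Middle and High, against 39569, 48761 and 45689 in WT Negative, Middle and High. No read numbers came with them. A background fitted to the steps of the authors' scores, in mean pileup per base, stood in for relative depth, with 1.567, 0.786 and 0.476 in dHx Negative, Middle and High, against 1.083, 1.496 and 0.879 in WT Negative, Middle and High. The dHx High list was the shortest and had the lowest fitted background, and the dHx Negative list was the longest and had the highest. The fit assumes that the score steps are Poisson, and depth itself was not observed. List length and fitted background moved with genotype and RFP level. The part of depth in the results was not tested beyond the comparison at equal list length.

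The 10 genes had the fewest peaks in the Negative lists, of which dHx Negative was the longest list and WT Negative the shortest in its genotype. They held 29, 46 and 49 peaks in dHx Negative, Middle and High, against 32, 43 and 52 in WT Negative, Middle and High. Per 1000 peaks of a list this was 0.575, 1.18 and 1.32 in the dHx lists and 0.809, 0.882 and 1.14 in the WT lists. The High list held the highest number in both genotypes, and Middle stood between.

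**Figure D1:**
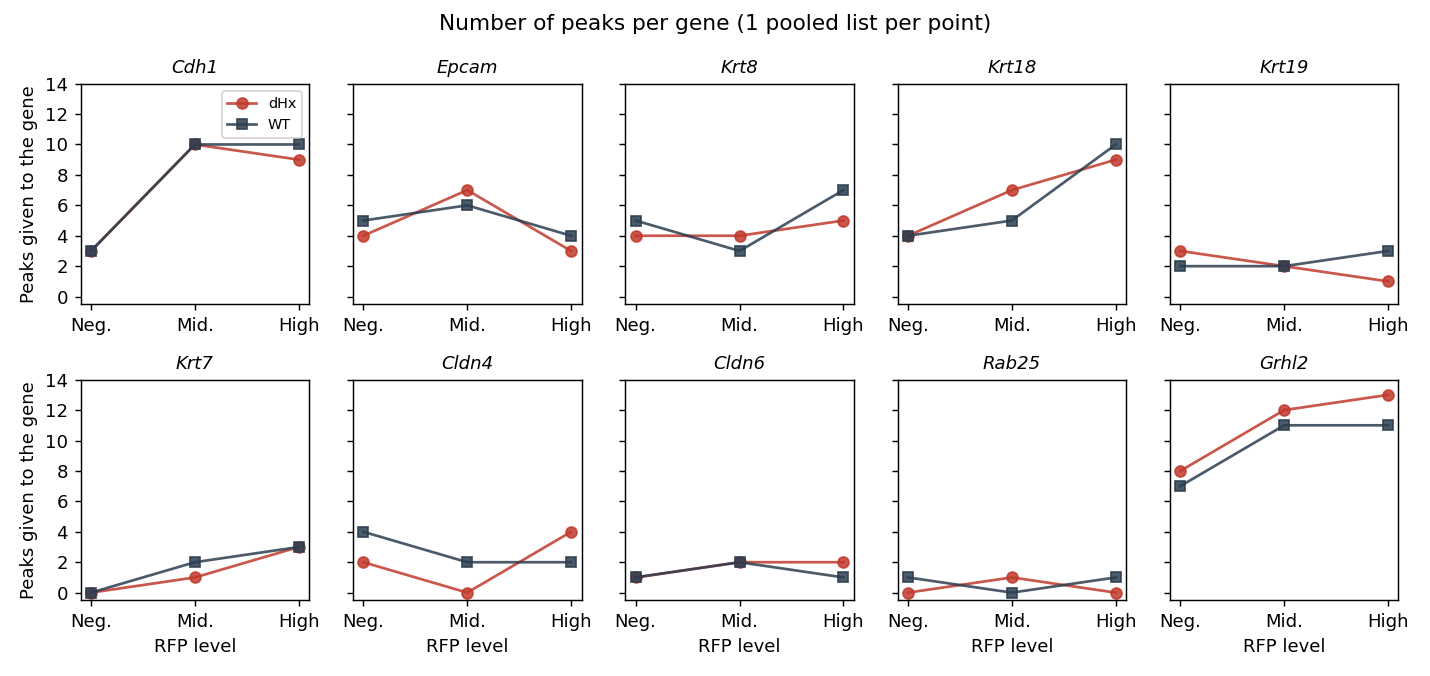
Number of peaks given to each of the 10 genes (vertical axis) at Negative, Middle and High RFP (horizontal axis), dHx as red circles and WT as dark squares, 1 pooled list per point. Cdh1 had 10 and 9 peaks in dHx Middle and High and 10 in each of WT Middle and High, against 3 in both Negative lists.

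The comparison of High with Negative cells asked which of these regions were open in the cells with the most tagged FoxA2. In dHx embryos, 30 of 49 High peaks (61.2%, exact Clopper-Pearson 95% interval 46.2 to 74.8) had no Negative peak at all, where a single shared base pair counted as overlap. Over all peaks near genes that share was 37.7%, below the interval. In the other direction, 9 of 29 dHx Negative peaks (31.0%, 15.3 to 50.8) had no High peak, against 52.3% of all, just above the interval. When a peak counted for each gene within 100 kb of it, the dHx High share was 46.1% (59 of 128, 37.2 to 55.1) and its interval held the 37.7% of all. The interval of the dHx Negative share held the share of all peaks within 20 kb (30.4% against 48.8%), at a score of at least 5 (29.4% against 37.2%) and at equal list length (30% against 43.0%). It also did so without Krt8, Krt18, Cldn4 or Cldn6, at 32.1% to 36%. In WT embryos, 29 of 52 High peaks (55.8%, 41.3 to 69.5) had no Negative peak, against 47.4% of all, which lies inside the interval. Of the WT Negative peaks 8 of 32 (25%, 11.5 to 43.4) had no High peak, against 39.7% of all, inside the interval. At equal list length the WT Negative share was 17.2% (5.85 to 35.8), and the 42.5% of all lay above the interval. The share of all also lay above it when at least 50% of the peak had to be covered (25% against 46.9%). With each gene in reach it did so too (26.5%, 18.1 to 36.4, against 39.7%). These intervals cover counting error only and treat peaks as independent, although peaks of 1 gene share their locus.

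Of the dHx Middle peaks 26 of 46 (56.5%, 41.1 to 71.1) had no dHx Negative peak, against 38.1% of all, below the interval. The interval held the share of all peaks under several other settings. These were 51.5% within 20 kb (17 of 33, 33.5 to 69.2, against 36.3%), 44.6% with each gene in reach (50 of 112, 35.2 to 54.3, against 38.1%), and 58.7% when at least 50% of the peak had to be covered (43.2 to 73.0, against 45.8%). Without Cdh1 it was 52.8% (35.5 to 69.6) and without Grhl2 55.9% (37.9 to 72.8). In the reverse direction 7 of 29 dHx Negative peaks (24.1%, 10.3 to 43.5) had no dHx Middle peak, against 51.2% of all. Of the WT Middle peaks 20 of 43 (46.5%, 31.2 to 62.3) had no WT Negative peak, against 49.5% of all, and 9 of 32 WT Negative peaks (28.1%, 13.7 to 46.7) had no WT Middle peak, against 38.5%. With all lists at the length of the shortest, dHx High stood at 73.5% (44.1% of all peaks), dHx Middle at 72.1% (43.2%) and WT High at 51.1% (42.5%). Among peaks with a score of at least 5, dHx High stood at 48.4% (24.3% of all) and WT High at 39.3% (31.0%).

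**Figure D2:**
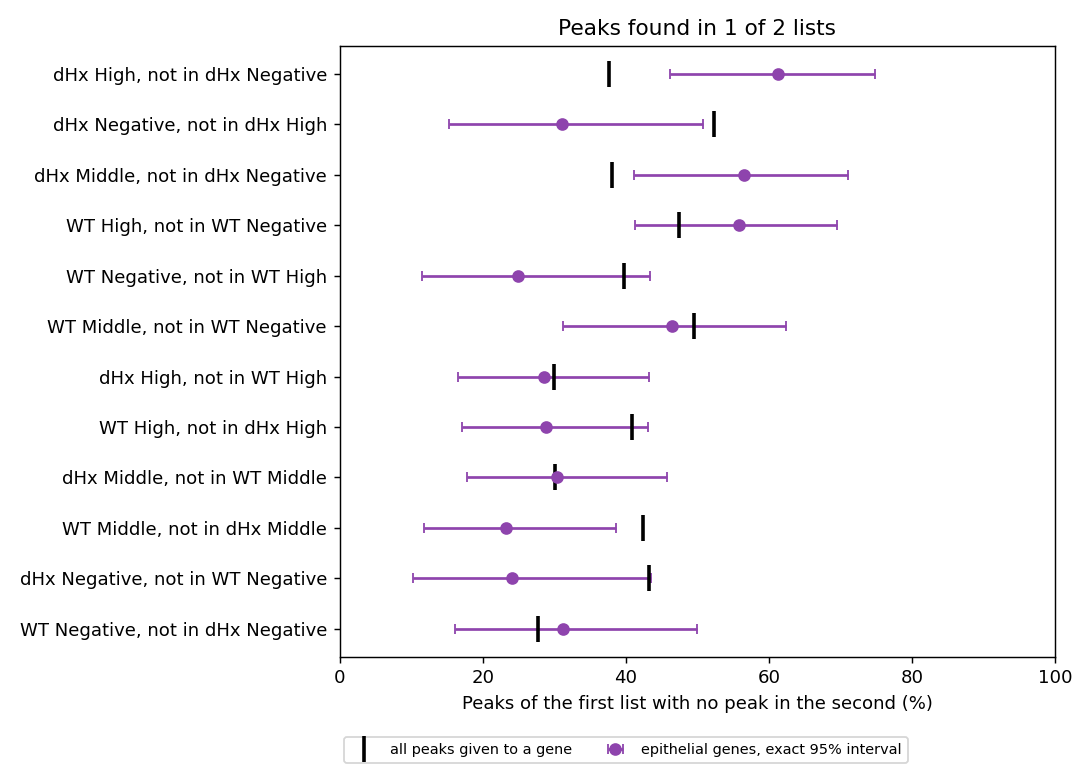
Share of peaks of the first list with no overlapping peak in the second (horizontal axis, percent) for 12 list comparisons (vertical axis), where purple points are the peaks of the 10 genes with exact 95% intervals, and black ticks are all peaks given to a gene. The dHx High and dHx Middle points against dHx Negative (61.2% and 56.5%) have their ticks (37.7% and 38.1%) below the interval.

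Seen by region, 14 of 79 (17.7%, 10.0 to 27.9) were open in both High lists and in neither Negative list, against 5.35% of all regions. They belonged to 4 of the 10 genes: 5 to Cdh1, 4 to Krt18, 3 to Grhl2 and 2 to Krt7. Without Cdh1 the count was 9 of 64. Of the 14, 5 were also open in both Middle lists and 4 in neither Middle list. Over all genes, 4673 regions were open in both High lists and neither Negative list. Of those, 1784 and 1604 had these patterns, a similar split. As shares of the 79 regions, the 5 were 6.33% (2.09 to 14.2, against 2.04% of all) and the 4 were 5.06% (1.40 to 12.5, against 1.84%). The reverse pattern was less frequent than in the background: 5 of 79 regions (6.33%, 2.09 to 14.2) were open in a Negative list and in no RFP-positive list, against 19.5% of all. These were 2 near Krt19 and 1 each near Epcam, Cldn4 and Grhl2, and without Krt19 the count was 3 of 74. Of them 1, near Krt19, was open in both Negative lists, against 2375 of the 17064 such regions over all genes. That was 1.27% of the 79 regions (0.0320 to 6.85), against 2.72% of all regions. At least 1 RFP-positive list and neither Negative list held 41 regions (51.9%, 40.4 to 63.3, against 39.3% of all), and at least 2 such lists held 22 (27.8%, 18.3 to 39.1, against 12.2%).

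Regions open in every list numbered 15 (18.99%, 11.03 to 29.38), against 14.8% of all regions. Their median rank was 25.7% in dHx High and 19.5% in WT High. A rank is the percent of peaks in that list with a higher score, ties averaged, and a region with several peaks in a list takes the best. The 14 regions of both High lists had median ranks of 57.8% in dHx High and 64.5% in WT High. Ranks are read within a list and not between lists. In 1 list alone stood 23 regions (29.1%), against 43.9% of all.

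**Figure D3:**
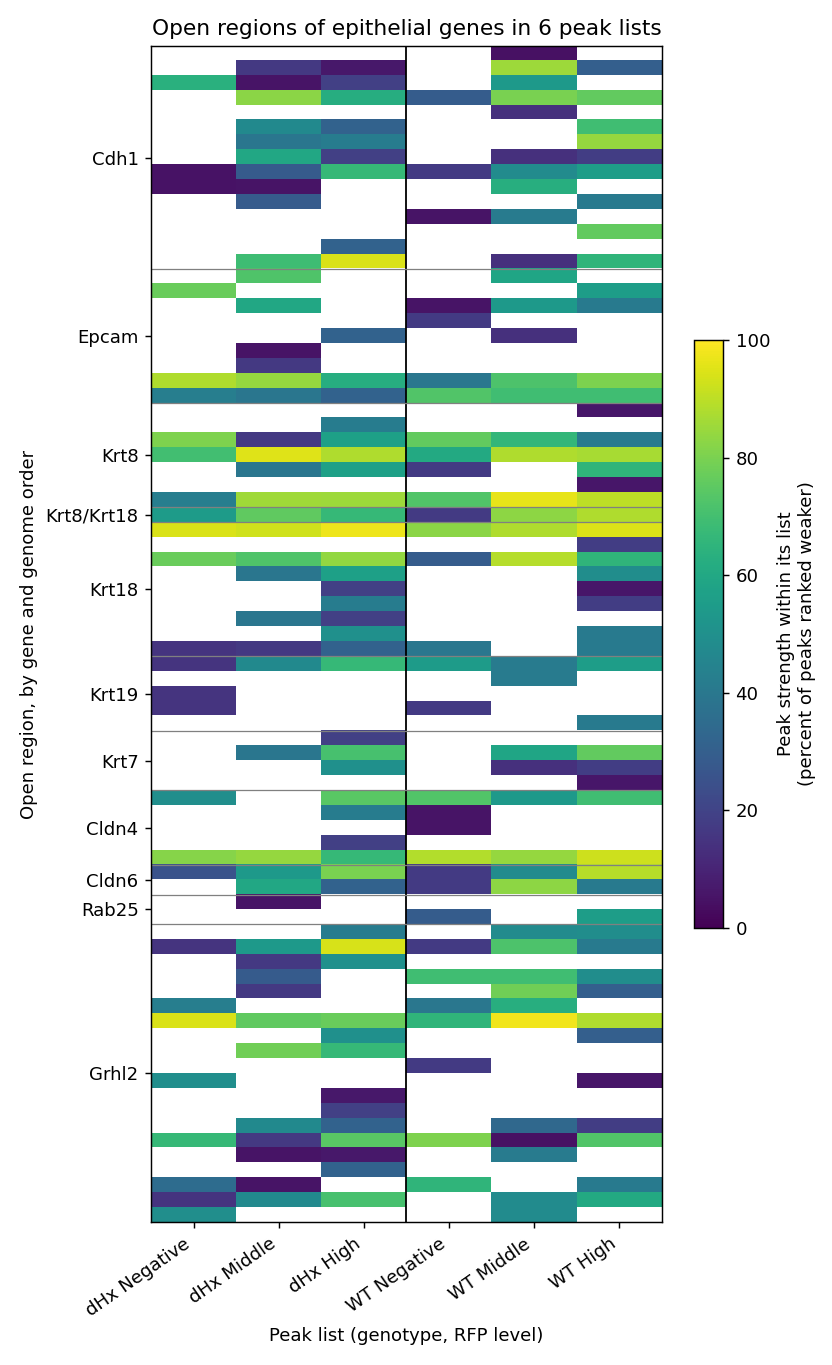
The 79 regions (rows, grouped by gene) in the 6 lists (columns), white where a list had no peak and coloured by the percent of peaks in the same list that ranked weaker. Both Negative columns are white at all 4 regions of Krt7, and 15 rows are coloured in all 6 columns, among them the strong region between Krt8 and Krt18.

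Cdh1 (gene 12550, chromosome 8, 106603350 to 106670247) encodes E-cadherin, the adhesion molecule of adherens junctions. Its 15 regions held 3, 10 and 9 peaks in dHx Negative, Middle and High, against 3, 10 and 10 peaks in WT Negative, Middle and High. Of these, 7 of 9 in dHx High and 8 of 10 in WT High had no peak in the Negative list of the same genotype. Over all peaks near genes those shares were 37.7% and 47.4%.
The region over the lower-coordinate gene end (106602785 to 106604171) was open in both Middle lists, both High lists and WT Negative, and not in dHx Negative. It ranked at 17.4% in dHx Middle and 37.7% in dHx High, against 70.8% in WT Negative, 20.0% in WT Middle and 24.1% in WT High.
A region 2.35 kb beyond the other gene end (106672599 to 106673113) was open in all 4 Middle and High lists but neither Negative list. It ranked at 31.0% in dHx Middle and 5.80% in dHx High, against 86.0% in WT Middle and 34.4% in WT High. It was the strongest of the 14 regions in dHx High.
Inside the gene, 106610847 to 106611467 was open in dHx Middle, dHx High and WT High, and at 15.8% in WT High it was the strongest of the 14 there. The neighbour at 106608168 to 106608810 was open in the same 3 lists. A further intragenic region, 106617303 to 106617918, and one 13.8 kb outside the gene (106588612 to 106589545) were open in the 4 RFP-positive lists. The single Cdh1 region of all 6 lists was intragenic (106619506 to 106620020), at 95.3% in dHx Negative and 83.0% in WT Negative.

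**Figure D4:**
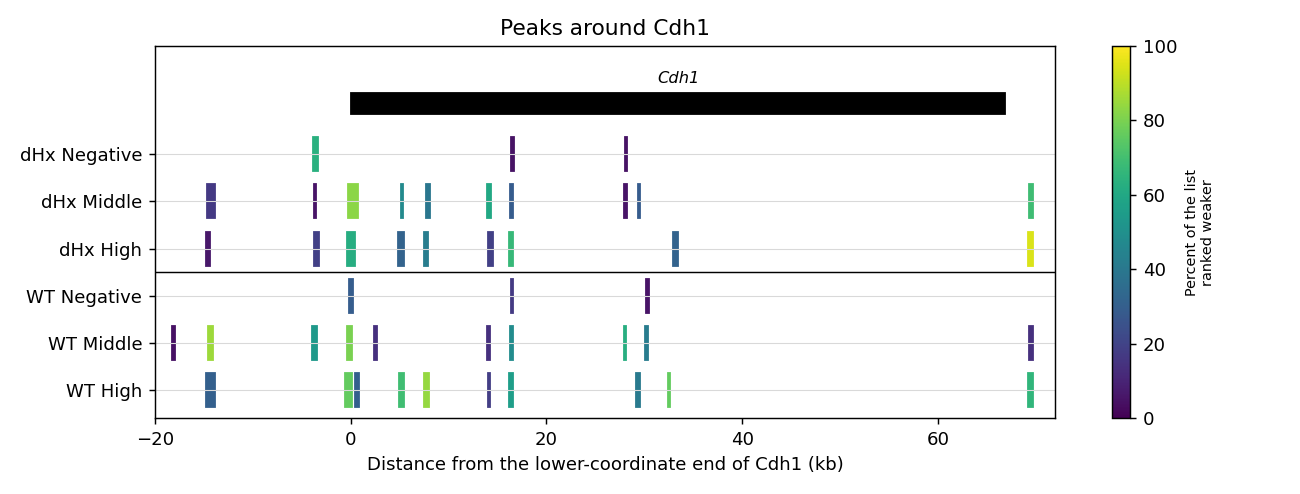
Peaks around Cdh1 in the 6 lists (rows), by distance from the lower-coordinate gene end (horizontal axis, kb), drawn to scale and coloured by the percent of the list ranked weaker, with the gene as a black bar. Each Negative row holds 3 peaks, and each Middle or High row 9 or 10.

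Epcam (gene 17075, chromosome 17, 87635979 to 87651127), which encodes a homophilic adhesion molecule of epithelia, did not share this pattern. It had 4, 7 and 3 peaks in dHx Negative, Middle and High, against 5, 6 and 4 in WT Negative, Middle and High. Middle was the highest of the 3 levels in both genotypes, and none of its 9 regions was open in both High lists and neither Negative list. A region over its start (87635370 to 87637357) and one 21.9 kb outside (87613218 to 87614126) were open in all 6 lists. In dHx High the peak of the first region lay outside the 300-base promoter window, which the other 5 lists overlapped. A region 68.4 kb outside (87567085 to 87567538) was open in both Middle lists and in no other, at 27.5% in dHx Middle and 41.4% in WT Middle.

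Krt8 (gene 16691, chromosome 15, 101996711 to 102004342) and Krt18 (gene 16668, chromosome 15, 102028216 to 102032026) encode the type II and type I partners of the first keratin filaments of the embryo, and are neighbours with starts that face each other. Krt8 had 4, 4 and 5 peaks in dHx Negative, Middle and High, against 5, 3 and 7 in WT Negative, Middle and High. Krt18 had 4, 7 and 9 in the dHx lists, against 4, 5 and 10 in the WT lists.
The pair had 6 distinct regions open in all 6 lists. The region over its start (102003964 to 102004976) covered the promoter and was open in all 6 lists, at 30.2%, 4.96% and 11.9% in dHx Negative, Middle and High, against 39.5%, 11.9% and 13.0% in WT Negative, Middle and High. Also open in all 6 was an intragenic region (102002862 to 102003842). A weaker intragenic peak (102001787 to 102002050) stood in dHx High alone, at 57.8%. The other 4 regions of all 6 lists lay between the genes, at 102013451 to 102014341, 102016103 to 102017285, 102017700 to 102018477 and 102025005 to 102026998. The one at 102017700 ranked within the strongest 17.4% of each list, with 5.58%, 7.42% and 2.52% in dHx Negative, Middle and High, against 17.4%, 11.9% and 5.16% in WT Negative, Middle and High.
The Krt18 gene itself differed. The region over its start (102028028 to 102028486), which overlaps the promoter printed above, was open in dHx Middle, dHx High and WT High, at 60.9%, 43.2% and 51.0%, and in neither Negative list. An intragenic region (102028625 to 102029032), one 14 bases past the gene (102032040 to 102033174) and one 10.1 kb past it (102042099 to 102042496) were open in dHx High and WT High alone. Of the Krt18 peaks, 5 of 9 in dHx High and 6 of 10 in WT High had no peak in the Negative list. Over all peaks near genes those shares were 37.7% and 47.4%. In each genotype 0 of 4 Negative peaks lacked a High peak, against 52.3% of all in dHx and 39.7% in WT.

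**Figure D5:**
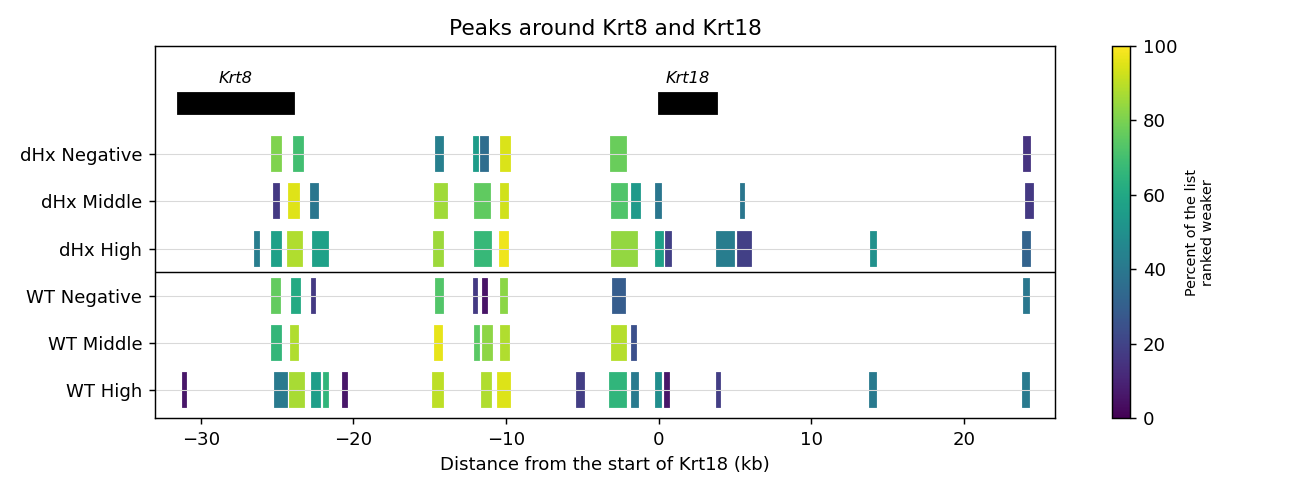
Peaks around Krt8 and Krt18 in the 6 lists (rows), by distance from the start of Krt18 (horizontal axis, kb), drawn to scale and coloured by the percent of the list ranked weaker, with genes as black bars. Peaks at 4 places between the genes stand in all rows, whereas those at the Krt18 start are in dHx Middle, dHx High and WT High.

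Krt7 (gene 110310, chromosome 15, 101412403 to 101427806), a type II keratin of ducts and glands, had no peak in either Negative list. It had 1 and 3 peaks in dHx Middle and High, against 2 and 3 in WT Middle and High. An intragenic region (101414729 to 101415565) was open in the 4 RFP-positive lists, at 60.9% in dHx Middle and 29.0% in dHx High, against 41.4% in WT Middle and 24.1% in WT High. The promoter window was touched by 1 peak, of dHx High, at 81.0%. Krt19 (gene 16669, chromosome 11, 100140810 to 100145926), a type I keratin, had 3, 2 and 1 peaks in dHx Negative, Middle and High, against 2, 2 and 3 in WT. Among peaks with a score of at least 5 the order in dHx turned round, with 1 peak in dHx High and 0 in dHx Negative. Its upper-coordinate end (100144928 to 100146319) was open in all 6 lists, and each of its other 4 regions was in 1 or 2 lists, such as one 13.6 kb outside (100159519 to 100159865) in WT Middle at 58.4%.

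The claudins form the tight junction strands. Cldn4 (gene 12740, chromosome 5, 134945123 to 134946934) had 2, 0 and 4 peaks in dHx Negative, Middle and High, against 4, 2 and 2 in WT. Its promoter region (134946612 to 134947395) was open in 5 lists and not in dHx Middle. A weak peak 15.2 kb away (134962178 to 134962399) stood in dHx High alone, at 81.0%. A region 18.8 kb away (134965732 to 134966906) was open in all 6 lists, although 2 of its peaks were nearer to another gene. Cldn6 (gene 54419, chromosome 17, 23679348 to 23682446) is short and had 1, 2 and 2 peaks in dHx Negative, Middle and High, against 1, 2 and 1 in WT. Its promoter region (23679065 to 23679913) was open in all 6 lists and ranked at 74.3%, 45.8% and 20.3% in dHx Negative, Middle and High, against 83.0%, 51.7% and 10.8% in WT. Its other gene end (23681837 to 23683234) was open in all lists but dHx Negative, with 2 of the peaks nearer to another gene. Rab25 (gene 53868, chromosome 3, 88542029 to 88548279) had 3 peaks in all. Its promoter region (88548162 to 88548599) was open in WT High and WT Negative and in no dHx list, and a weak intragenic peak stood in dHx Middle.

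Grhl2 (gene 252973, chromosome 15, 37232821 to 37363569) is the longest of the 10 genes and had the most regions, 20. It held 8, 12 and 13 peaks in dHx Negative, Middle and High, against 7, 11 and 11 in WT Negative, Middle and High. The region over its lower-coordinate end (37232670 to 37233623) was open in both Middle and both High lists, and in neither Negative list. It ranked at 52.6% in dHx Middle and 68.5% in dHx High, against 66.1% in WT Middle and 82.0% in WT High. Next to it, an intragenic region (37233927 to 37234886) was open in all 6 lists. A region 56.2 kb outside (37175040 to 37176656) was also open in all 6, at 5.58%, 24.3% and 22.8% in dHx Negative, Middle and High, against 34.7%, 1.97% and 11.8% in WT. Another, 96.7 kb outside (37135398 to 37136089), ranked at 85.1%, 45.8% and 6.25% in dHx Negative, Middle and High, against 83.0%, 28.0% and 59.1% in WT Negative, Middle and High.
Grhl2 alone had peaks near the 100 kb limit. Just inside it, a region 98.2 kb away (37134098 to 37134602) was open in dHx High, WT Middle and WT High, with scores of 6.02, 6.52 and 5.97. Just outside, at 112 kb, peaks of dHx High and WT High scored 3.70 and 3.05.

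Of the 7 promoter windows, 4, 4 and 5 held a peak in dHx Negative, Middle and High (38.6%, 34.9% and 38.9% of all windows), against 5, 4 and 6 in WT Negative, Middle and High (35.1%, 34.3% and 37.7%). Krt8 and Cldn6 were open in every list. Between High and Negative the windows that changed were Krt18 and Krt7 in dHx, open in High alone, and Epcam, open in Negative alone. In WT only Krt18 changed.

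The comparison of dHx with WT asked which of these regions differed when FoxA2 lacked the helix. At High RFP, 14 of 49 dHx peaks (28.6%, 16.6 to 43.3) had no WT peak, against 30.0% of all, and 15 of 52 WT peaks (28.8%, 17.1 to 43.1) had no dHx peak, against 40.9% of all. The first share was near the background, and the second lay below it, although inside the interval. At Middle RFP, 14 of 46 dHx peaks (30.4%, 17.7 to 45.8) had no WT peak, against 30.1% of all, and 10 of 43 WT peaks (23.3%, 11.8 to 38.6) had no dHx peak, against 42.4% of all. The interval of the last share held that of all peaks at equal list length (22.2% against 34.0%), at a score of at least 5 (18.2% against 27.1%) and without Krt18 (26.3%). At Negative RFP, 7 of 29 dHx peaks (24.1%, 10.3 to 43.5) had no WT peak, against 43.3% of all, and 10 of 32 WT peaks (31.2%, 16.1 to 50.0) had no dHx peak, against 27.8% of all.

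Within a genotype, 15 of the 30 dHx High peaks with no dHx Negative peak (50%, 31.3 to 68.7) overlapped a dHx Middle peak, against 35.4% of all, and 10 of the 29 such WT High peaks (34.5%, 17.9 to 54.3) a WT Middle peak, against 35.8%.
WT High and WT Middle peaks absent from WT Negative were looked up in the dHx list of the same RFP level. Of the 29 WT High peaks with no WT Negative peak, 19 (65.5%, 45.7 to 82.1) overlapped a dHx High peak, against 38.5% of such peaks over all genes. Of the 20 WT Middle peaks with no WT Negative peak, 13 (65%, 40.8 to 84.6) overlapped a dHx Middle peak, against 37.8% of all. In the other direction, 17 of 30 dHx High peaks with no dHx Negative peak (56.7%, 37.4 to 74.5) overlapped a WT High peak, against 46.0% of all, and 14 of 26 such dHx Middle peaks (53.8%, 33.4 to 73.4) a WT Middle peak, against 47.1%.
In dHx lists alone stood 14 of 79 regions (17.7%, 10.0 to 27.9, against 23.5% of all). In WT lists alone stood also 14, with the same interval, against 25.8% of all. Both shares were lower than over all genes, but the interval held the share of all regions each time. Open in both dHx RFP-positive lists and in no WT list were 3 regions (0.846% of all): 1.43 kb past Krt18 (102033455 to 102034261), and 94.1 kb and 29.3 kb from Grhl2 (37138394 to 37138725 and 37203041 to 37203473). The last ranked at 21.6% in dHx Middle and 32.9% in dHx High. Open in both WT RFP-positive lists and in no dHx list were 0 of 79, which allows a share of up to 4.56% by the exact interval, against 1.35% of all.

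A wider list of 41 epithelial genes, of junctions, polarity and further keratins and without the 10, is set beside them. In dHx High 52 of its 132 peaks (39.4%, 31.0 to 48.3) had no Negative peak, close to the 37.7% of all, and 49 of 127 Negative peaks (38.6%, 30.1 to 47.6) had no High peak, below the 52.3% of all. In WT High 78 of 144 (54.2%, 45.7 to 62.5) had no Negative peak, against 47.4% of all, and 38 of 102 WT Negative peaks (37.3%, 27.9 to 47.4) had no High peak, against 39.7%. By gene, 16 of the 41 had more High-only and 13 more Negative-only peaks in dHx (23.2% and 39.9% of all genes with a peak), and 22 and 11 in WT (38.9% and 24.8%). Tjp1, which encodes the tight junction scaffold ZO-1, had 5 High-only peaks of 9 in dHx High and 8 of 8 in WT High. Pard3, a polarity scaffold, had 8 of 14 in dHx and 12 of 17 in WT, and Dsg2, a desmosomal cadherin, 0 of 6 in dHx and 4 of 6 in WT. On the Negative side in WT, F11r, which encodes the junctional adhesion molecule JAM-A, had 3 Negative-only peaks of 5, and Patj 4 of 6. Their High-only peaks in WT were 0 of 2 and 2 of 4. In dHx neither side had more: F11r had 1 Negative-only peak of 3 and 1 High-only peak of 3. Patj had 2 Negative-only peaks of 6 and 2 High-only peaks of 5 there. Krt20, Krt5 and Ovol1 had no peak in the High and Negative lists.

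Loci of other cell types were counted in the same lists. Of the peaks near 24 mesenchymal and mesoderm genes, 24 of 68 in dHx High (35.3%, 24.1 to 47.8) and 36 of 76 in WT High (47.4%, 35.8 to 59.2) had no Negative peak, against 37.7% and 47.4% of all. No High peak met 65 of 112 in dHx Negative (58.0%, 48.3 to 67.3) and 44 of 84 in WT Negative (52.4%, 41.2 to 63.4), against 52.3% and 39.7%. Only the WT Negative interval left out the share of all. By gene, 4 of the 24 had more High-only and 16 more Negative-only peaks in dHx (23.2% and 39.9% of all genes with a peak). In WT it was 9 and 9 (38.9% and 24.8%). Hand1 and Twist1, factors of mesoderm and mesenchyme, had no peak in either High list, and Foxc2 had none in the High or the Negative lists. Hand1 had 4 peaks in dHx Negative and 6 in WT Negative, Twist1 2 in dHx Negative and 3 in WT Negative, and Prrx1 5 Negative-only peaks of 7 in dHx and 6 of 7 in WT. Cdh2, which encodes N-cadherin, had 3 High-only peaks of 5 in dHx and 3 of 8 in WT, and Cdh11 2 of 4 in dHx and 3 of 7 in WT. Pdgfra had 2 of 5 in dHx and 3 of 5 in WT, and Sparc 3 of 6 in dHx and 5 of 7 in WT. Negative-only peaks in dHx were 3 of 5 for Cdh2, 7 of 9 for Cdh11, 1 of 4 for Pdgfra and 1 of 4 for Sparc. In WT they were 0 of 5, 1 of 6, 0 of 2 and 0 of 2 in the same order. The mesenchymal list held 112, 63 and 68 peaks in dHx Negative, Middle and High, against 84, 76 and 76 in WT Negative, Middle and High. Another epithelium, the extraembryonic ectoderm, was followed by 12 genes, with 54, 33 and 43 peaks in the dHx lists and 40, 30 and 36 in the WT lists. Of these, 16 of 43 in dHx High (37.2%, 23.0 to 53.3) and 16 of 36 in WT High (44.4%, 27.9 to 61.9) had no Negative peak. In the other direction it was 28 of 54 in dHx Negative (51.9%, 37.8 to 65.7) and 22 of 40 in WT Negative (55%, 38.5 to 70.7). Each interval held the share of all peaks. Visceral endoderm, an epithelium in which FoxA2 is known to act, was followed by 10 genes with 17, 32 and 15 peaks in dHx Negative, Middle and High, against 10, 33 and 19 in WT Negative, Middle and High. Of these, 26 of 32 in dHx Middle (81.2%, 63.6 to 92.8) and 26 of 33 in WT Middle (78.8%, 61.1 to 91.0) had no Negative peak, against 38.1% and 49.5% of all and 56.5% and 46.5% at the 10 epithelial genes. In the High lists it was 8 of 15 in dHx (53.3%, 26.6 to 78.7) and 14 of 19 in WT (73.7%, 48.8 to 90.9), against 61.2% and 55.8% at the epithelial genes. The share of all peaks was 37.7% in dHx, inside the interval, and 47.4% in WT, just below it. No High peak met 12 of 17 in dHx Negative (70.6%, 44.0 to 89.7) and 5 of 10 in WT Negative (50%, 18.7 to 81.3). Both intervals held the share of all, 52.3% and 39.7%. Visceral endoderm peaks were most numerous in Middle in both genotypes, and Rhox5 had none in the High and Negative lists. The 10 neuroectoderm genes held 42, 31 and 33 peaks in the dHx lists and 43, 27 and 37 in the WT lists. The part of these cell types in the epithelial result was not tested.

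Among 6653 other genes with at least 12 peaks over the 6 lists, 5 followed the summed profile of the 10 genes most closely in peaks per 1000 peaks. They were AI661453 (Pearson r 0.989), Uaca (0.987), Bcl9 (0.981), Tmprss2 (0.978) and Wdr7 (0.978). AI661453 had 1, 5 and 5 peaks in dHx Negative, Middle and High, against 2, 3 and 5 in WT. These correlations describe 6 lists that differ in length and in fitted background.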

How the data were processed

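ATAC-seq libraries of 12 samples in 6 groups were deposited as 1 peak list per group in mm10 coordinates. The submitters' processing notes name the tools STAR 2.5.2a and MACS2 without their roles or settings. Peak names hold the word Pooled, so each list was taken to come from the pooled reads of its 2 samples, and leaving out single replicates was not possible. The deposited score appears, from its values, to be a −log10 transformed q-value or p-value (the headers do not say which). It grows with depth and was used only within a list. Lines with the same start and end were merged into 1 peak with the highest score. The fitted background assumes Poisson steps between the 40 lowest scores. Peaks were given to the nearest of 21883 RefSeq protein-coding genes (distance 0 inside it), and 0 of the 251 peaks tied. Overlap needed 1 bp. Intervals are Clopper-Pearson 95%, with Python 3.11.15, pandas 2.3.3, numpy 2.4.6 and scipy 1.17.1. Overlap and assignment were tested on simulated intervals. Named genes were the 10, the 4 with the largest and 2 with the smallest WT High-only minus Negative-only number in the 2 lists of further epithelial and mesenchymal genes, and 5 by profile. Of the genes this rule gives, 1 is not reported here. The regions named were those over gene ends and, per gene, the best ranked of those in an RFP-positive list and neither Negative list. Other regions, genes with no peak and Twist1 were named after their values were seen. The 10 genes and all lists were chosen with earlier results of these data known. Alternatives are given in the closing section.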

Additional observations from a re-analysis of the deposited data

Results flagged for a closer look

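In 3 genes the number of peaks differed from the Negative list in opposite directions in the 2 genotypes, and the difference between genotypes was not tested. Cldn4 had 2 more peaks in dHx High than in dHx Negative, a difference of 2, and a WT High minus WT Negative difference of -2. The 2 Cldn4 peaks of WT Negative without a WT High peak were weak, both at a rank of 94.5%. For Krt19 the differences were -2 in dHx and 1 in WT. For Rab25 the Middle minus Negative differences were 1 in dHx and -1 in WT. Each rests on 1 list per group and on 0 to 4 peaks per list.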

How the results depend on the processing

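No paired analysis was possible because each group was deposited as 1 pooled list without replicate columns. Of 60 planned values, 53 stayed inside the 95% interval of the main share. With a score of at least 5, the share with no peak in the other list was 12.9% for dHx High against WT High (15.4% of all peaks at that score), 14.3% for WT High against dHx High (21.9%), and 39.3% for WT High against WT Negative (31.0%). It was 6.25% for WT Negative against WT High (26.8%) and also against dHx Negative (15.8%). The share over all peaks was lower at that score too. At equal list length (37129 peaks), dHx Middle against dHx Negative was 72.1% (43.2%). When a peak counted for each gene in reach (100 kb), not the nearest alone, dHx High against dHx Negative was 46.1%, and its interval then held the 37.7% of all peaks, which the main interval did not. The remaining settings were chosen after seeing the data. The 14 of 79 regions of both High lists and neither Negative list became 27 of 221 with every gene within 100 kb and 9 of 64 without Cdh1. The 5 of 79 regions of a Negative list and no RFP-positive list became 3 of 55 with a score of at least 5, 3 of 60 within 20 kb and 3 of 74 without Krt19. With every gene within 100 kb they became 22 of 221. The share over all regions was not computed at these settings. The difference of dHx High minus dHx Negative changed sign for Krt19 to 1 at equal length and at a score of at least 5, and for Epcam to 1 with every gene within 100 kb. The WT difference of Cldn4 was -1 at equal length and at a score of at least 5, and 0 with every gene within 100 kb. Its dHx difference was 1 at a score of at least 5 and stayed 2 in the other settings. The cause was not tested. Without any 1 of the 10 genes, shares ranged from 57.5% to 63.6% for dHx High and from 50% to 58.3% for WT High against their Negative lists. Read depth is unknown, and a weak region missing from a shallow list may lie below what it could hold.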
